A study of Mus musculus with 12 samples.

Results

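The 34 genes described here encode the enzymes and regulators of de novo lipogenesis and of triglyceride assembly, and were selected by gene symbol from the 47729 genes quantified in 12 RNA-seq libraries of mouse fat. They comprised 6 genes of the fatty acid synthesis core, 6 that export citrate or supply NADPH, 7 acyl-CoA desaturases, 6 regulators and 9 genes of glycerolipid assembly. All 34 passed the filter on low counts and are among the 19154 genes tested. The libraries came from wild-type male C57BL/6J mice aged 6 to 10 weeks on a standard low-fat rodent diet, and all the adipose tissue had been denervated by surgery. There were 4 depots with 3 libraries each: interscapular brown adipose tissue (BAT) and inguinal, retroperitoneal and epididymal white adipose tissue (IWAT, RWAT and EWAT). Innervated fat was not analysed here, so the comparisons below are between denervated depots and do not measure an effect of denervation. Whether the 3 libraries per depot represent different mice is not stated in the labels. The p-values therefore reflect how much these samples varied, and that variation may be technical.

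In de novo lipogenesis, citrate leaves the mitochondrion and is cleaved to cytosolic acetyl-CoA, acetyl-CoA carboxylase turns acetyl-CoA into malonyl-CoA, and fatty acid synthase joins these units into palmitate at the expense of NADPH. Desaturases then introduce double bonds, and acyltransferases attach the acyl chains to a glycerol backbone to give triglyceride, the storage lipid of the adipocyte. The transcription factors SREBP1 (encoded by Srebf1) and ChREBP (encoded by Mlxipl) drive these genes in response to insulin and to glucose, and in brown fat the pathway operates beside fatty acid oxidation and is known to respond to sympathetic input.

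Library totals ran from 15699912 to 25633413 estimated counts, and the mitochondrial genome supplied 3.28% to 19.0% of them. Within their depots several libraries differed in markers of the labelled tissue or of another cell type. Some results are also given without BAT 2, RWAT 1 or RWAT 3. Ucp1 encodes the uncoupling protein that defines brown adipocytes. The library labelled BAT 2 had 32.2 CPM (counts relative to the library total, scaled by TMM) of it. BAT 1 had 2962 CPM and BAT 3 had 702 CPM. The 8 brown adipocyte markers of BAT 2 summed to 153 CPM, against 202 and 328 CPM in IWAT 1 and IWAT 2. By mean log2(CPM + 0.5) of these markers BAT 2, at 3.68, lay between IWAT 1 at 3.20 and IWAT 2 at 3.93. BAT 1 and BAT 3 were at 6.72 and 5.61. The library RWAT 3 held 16420 summed CPM of 14 skeletal muscle markers, against 80.9 and 77.0 CPM in RWAT 1 and RWAT 2, and BAT 1 and BAT 2 held 20020 and 14080 CPM. RWAT 1 had 25800 summed CPM of 14 adipocyte markers, against 4744 and 3728 CPM in the other RWAT libraries, and IWAT 3 had 8817 CPM against 35640 and 30620 CPM in IWAT 1 and IWAT 2. None of the 14 adipocyte markers and none of the 14 macrophage markers was at 0 in any library.

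The promoters of a few members whose transcripts varied together between libraries are shown for reference, as the 250 bases upstream of the RefSeq start site (build GRCm38.p6). The 4 were chosen to represent the synthase, the citrate carrier and both transcription factors. In each, the RefSeq start is also the start of a GENCODE M21 transcript, and no annotated exon overlaps the window. Of the 34 genes, 29 had at least 1 window in the RefSeq table used, and Dgat1, Dgat2, Fads1, Scd1 and Scd2 had none. Both strands were searched for CCAAT (the box bound by NF-Y), for CACGTG (the E-box bound by USF and ChREBP), for GGGCGG (the GC box) and for TCACNCCAC (a sterol response element of the kind bound by SREBP). Capitals mark CCAAT or its reverse strand ATTGG in the first 3 sequences, and the sterol response element in the last. Fasn lies on the minus strand at chr11:120824548-120824797, Slc25a1 on the minus strand at chr16:17928220-17928469, Srebf1 on the minus strand at chr11:60222582-60222831, and a Mlxipl start site on the plus strand at chr5:135106641-135106890.
Fasn: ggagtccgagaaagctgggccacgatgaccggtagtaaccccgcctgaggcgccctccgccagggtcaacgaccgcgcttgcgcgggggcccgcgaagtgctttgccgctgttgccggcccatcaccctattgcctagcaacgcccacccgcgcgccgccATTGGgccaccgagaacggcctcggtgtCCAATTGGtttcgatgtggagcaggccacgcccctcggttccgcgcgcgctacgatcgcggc
Slc25a1: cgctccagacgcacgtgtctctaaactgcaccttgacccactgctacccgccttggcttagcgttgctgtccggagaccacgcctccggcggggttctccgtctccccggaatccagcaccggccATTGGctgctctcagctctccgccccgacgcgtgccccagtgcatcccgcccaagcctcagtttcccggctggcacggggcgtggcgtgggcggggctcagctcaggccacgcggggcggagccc
Srebf1: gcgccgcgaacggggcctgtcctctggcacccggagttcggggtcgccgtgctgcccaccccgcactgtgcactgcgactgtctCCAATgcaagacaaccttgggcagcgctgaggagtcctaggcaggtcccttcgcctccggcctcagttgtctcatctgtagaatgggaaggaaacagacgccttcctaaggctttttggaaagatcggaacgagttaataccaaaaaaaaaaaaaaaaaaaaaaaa
Mlxipl: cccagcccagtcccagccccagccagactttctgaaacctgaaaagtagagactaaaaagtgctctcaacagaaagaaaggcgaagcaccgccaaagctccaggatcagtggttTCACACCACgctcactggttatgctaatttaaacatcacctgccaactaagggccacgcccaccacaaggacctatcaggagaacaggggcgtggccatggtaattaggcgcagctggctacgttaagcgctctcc
In the Fasn window CCAAT or ATTGG begins 90, 62 and 59 bases before the start site, and the last pair overlaps in the run CCAATTGG. A CCAAT match stood in at least 1 window of 15 of the 29 members (51.7%) and of 37.5% of the 27025 genes in the table. The GC box was found in 19 members (65.5%, against 35.4% of all genes) and the E-box in 5 (17.2%, against 6.86%). Among the members TCACNCCAC was found in 1, Mlxipl, and in 1.22% of all genes. These matches describe the letters in the windows and were not tested for binding.

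The 34 genes together took 10.4%, 8.91% and 3.11% of all counts in BAT 1 to 3, 8.93%, 5.45% and 1.48% in IWAT 1 to 3, 9.26%, 0.67% and 0.53% in RWAT 1 to 3, and 1.19%, 1.15% and 0.647% in EWAT 1 to 3. Scd1 alone supplied up to 5.02% of a library, in RWAT 1. The BAT libraries all lay above the EWAT libraries, whereas IWAT and RWAT each spanned a wide range. Within depots the same libraries stood high or low for nearly all members. IWAT 3 was below both other IWAT libraries in 28 of 34 genes, RWAT 1 above both other RWAT libraries in 30, BAT 3 below both other BAT libraries in 28, and all 3 of these orders held in 28. Among all genes tested these orders held in 15.4%, 27.2%, 13.0% and 6.61%. By mean TPM (the level of a gene per transcript length, relative to all transcripts of the library), 26 members were highest in BAT and 27 lowest in EWAT, and 24 followed the order BAT, IWAT, RWAT, EWAT.

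**Figure D1:**
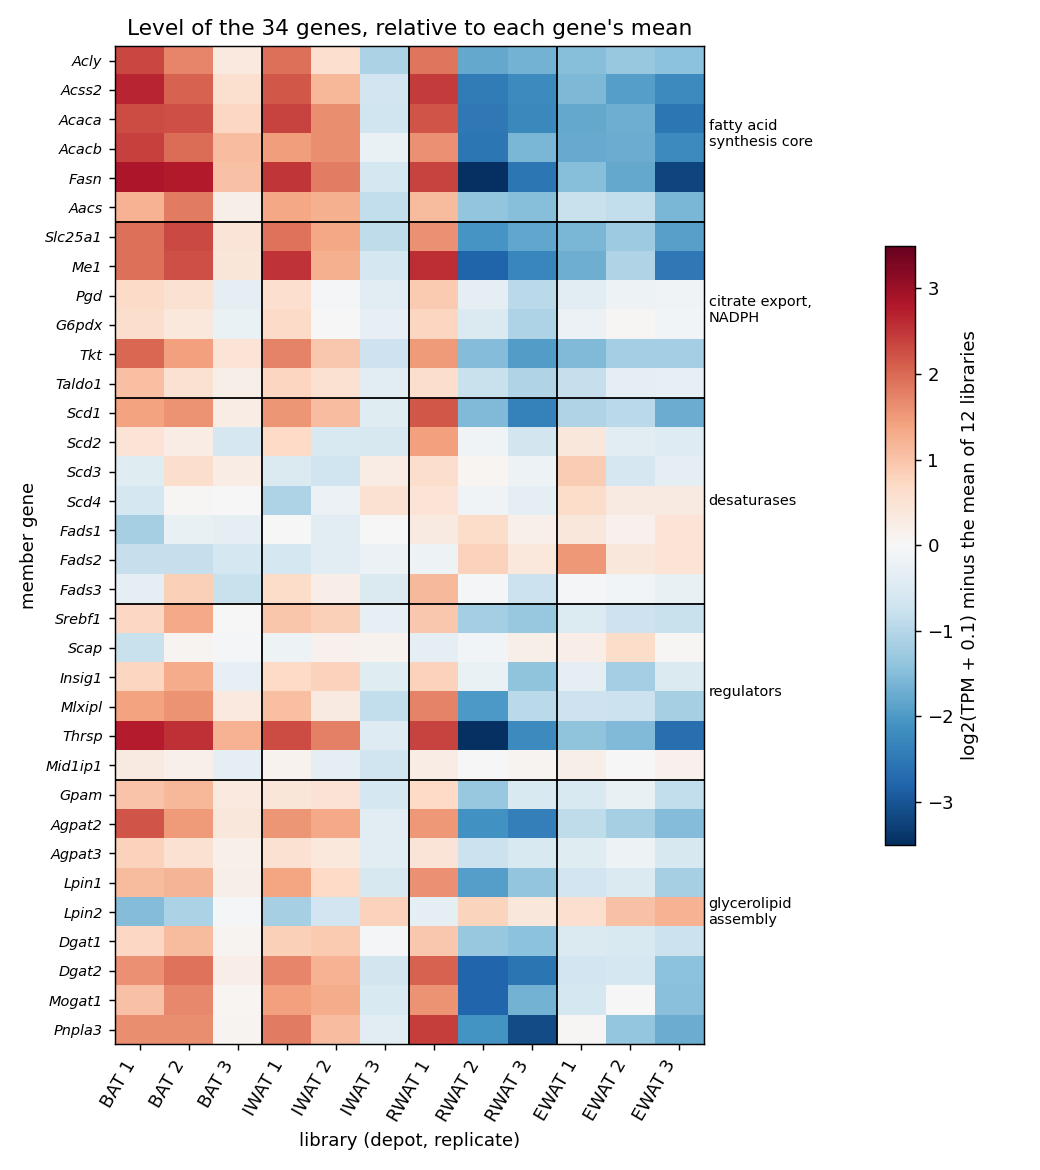
Level of each of the 34 genes (rows, grouped by role) in each of the 12 libraries (columns), as log2(TPM + 0.1) minus that gene's mean over the 12 libraries; red is above and blue below the mean, and the colour scale ends at 3.5 on either side. RWAT 1 is coloured like BAT 1, BAT 2 and IWAT 1 for most genes, and Lpin2 and Fads2 run the other way in BAT and EWAT.

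Of the 6 fatty acid synthesis genes Fasn had the widest range, 85.9-fold in TPM between its lowest and highest library, and Acss2 differed 34.9-fold. Fasn, which encodes fatty acid synthase, measured 4870.3, 4753 and 1394 TPM in BAT, 3917, 2373 and 448 in IWAT, 3579.6, 56.7 and 119 in RWAT, and 247, 199 and 73.8 in EWAT. Every BAT library was above every EWAT library, while IWAT 3, RWAT 2 and RWAT 3 were far below the highest library of their depots. Acaca, the cytosolic acetyl-CoA carboxylase of lipogenic tissue, measured 1250.1, 1225 and 421 TPM in BAT, 1317, 797 and 158 in IWAT, 1188, 45.4 and 54.1 in RWAT, and 74.7, 78.1 and 44.4 in EWAT. Acacb, the carboxylase isoform at the mitochondrial surface whose malonyl-CoA restrains fatty acid oxidation, measured 185, 137 and 75.0 TPM in BAT, 97.4, 109.9 and 30.4 in IWAT, 108, 6.05 and 11.7 in RWAT, and 10.4, 10.5 and 7.43 in EWAT. Both carboxylases had BAT and EWAT libraries that did not overlap, and RWAT 1 stood at the level of BAT and IWAT.

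Acetyl-CoA for the pathway comes from citrate through Acly and from acetate through Acss2. Acly, ATP citrate lyase, measured 2048, 1318 and 518 TPM in BAT, 1551, 612 and 188 in IWAT, 1481, 118 and 129.8 in RWAT, and 145, 163 and 149.8 in EWAT. Its EWAT libraries lay close together, at 153 ± 9.26 TPM (mean ± SD, n = 3). Acss2, the cytosolic acetyl-CoA synthetase, measured 428, 281 and 100.1 TPM in BAT, 303, 149.7 and 42.3 in IWAT, 371, 12.2 and 14.3 in RWAT, and 22.7, 17.8 and 14.3 in EWAT. For both genes RWAT 1 was in the range of IWAT 1 and BAT, and RWAT 2 and RWAT 3 were below every EWAT library, though only narrowly for Acss2, at 14.30 TPM in RWAT 3 and 14.34 TPM in EWAT 3. Aacs, which activates the ketone body acetoacetate for lipid synthesis, ranged from 26.4 to 279 TPM.

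Genes of citrate export and NADPH supply fell into a wide and a narrow set. Me1, the cytosolic malic enzyme that yields NADPH, measured 1057, 1318 and 372 TPM in BAT, 1586, 649 and 181 in IWAT, 1648, 39.1 and 56.2 in RWAT, and 84.8, 133 and 48.5 in EWAT. Slc25a1, the mitochondrial citrate carrier, measured 1053, 1382 and 380.3 TPM in BAT, 1038, 714 and 149 in IWAT, 846, 65.8 and 78.2 in RWAT, and 91.9, 116 and 73.6 in EWAT. RWAT 1 was the highest of the 12 libraries for Me1 and lay within the range of BAT for Slc25a1. Tkt and Taldo1, of the non-oxidative pentose phosphate branch, ranged from 133 to 2067 and from 135 to 575 TPM. Pgd and G6pdx, the NADPH-producing enzymes of the oxidative branch, had narrower ranges of 68.6 to 248 and 55.6 to 201 TPM. Between its lowest and highest library Me1 differed 42.1-fold.

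**Figure D2:**
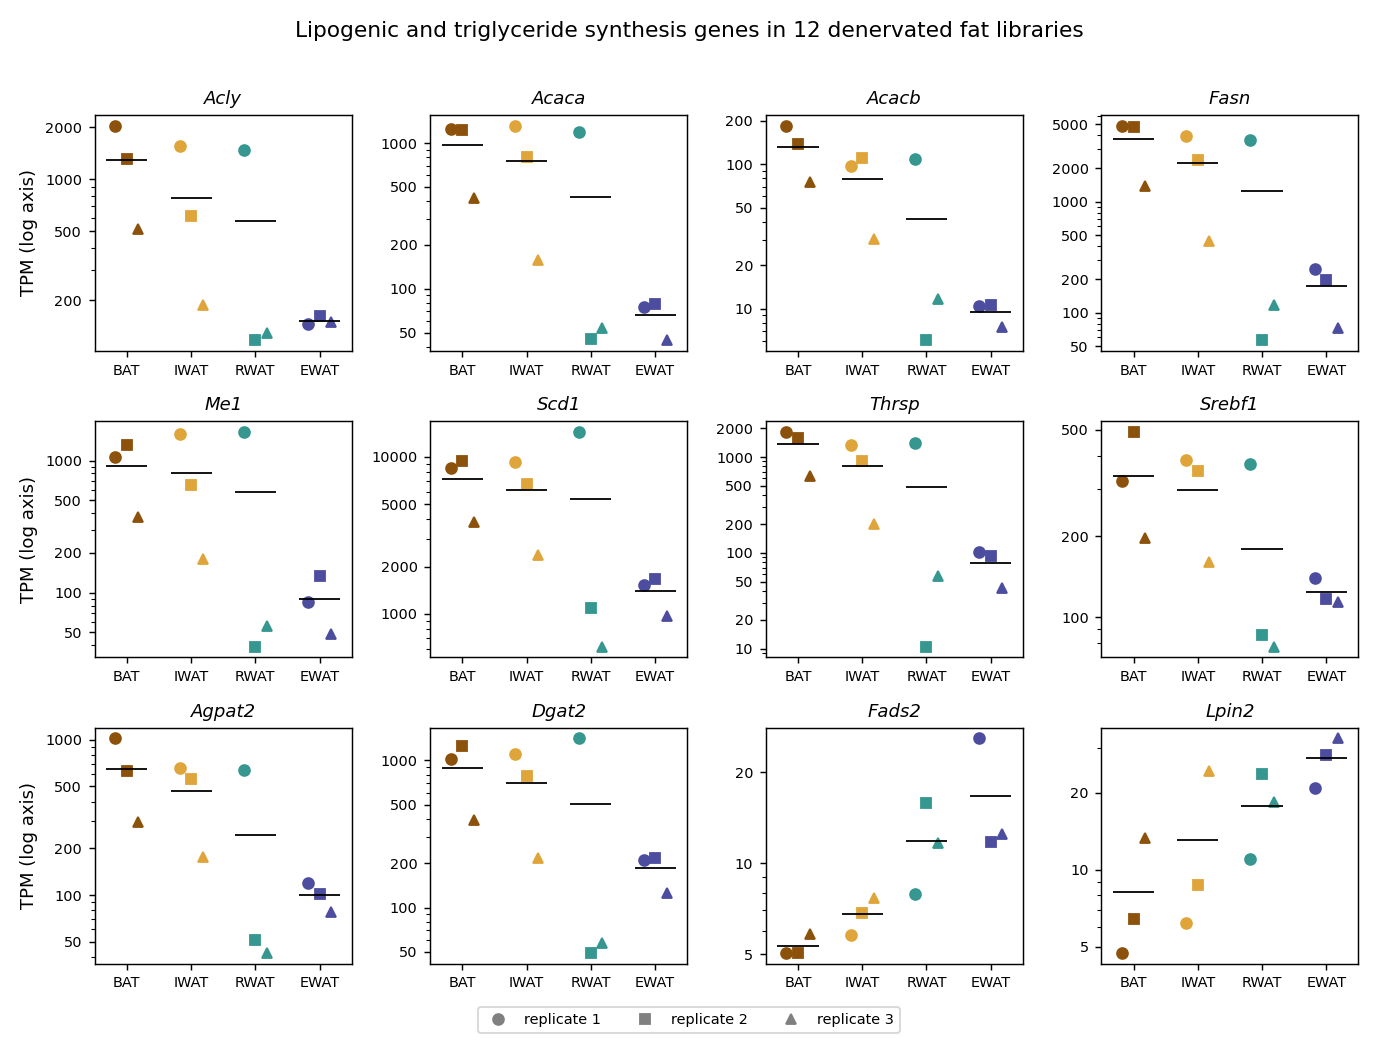
TPM on a log axis for 12 of the genes in each library, by depot (symbols are replicates 1 to 3, and horizontal lines depot means, n = 3). In the first 10 panels RWAT 1 lies with the BAT and IWAT libraries and RWAT 2 and RWAT 3 near or below EWAT; Fads2 and Lpin2 had their highest means in EWAT.

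Scd1 was by far the most abundant desaturase. The 4 Scd genes lie side by side on chr19:44203269-44407879 and the 3 Fads genes on chr19:10041569-10196877 (GENCODE M21, build GRCm38). Scd1, stearoyl-CoA desaturase 1, which makes oleate and palmitoleate, measured 8461, 9412 and 3839 TPM in BAT, 9341, 6773 and 2374 in IWAT, 14444, 1097 and 619 in RWAT, and 1535, 1667 and 963 in EWAT. It supplied 93.3% to 99.3% of the summed TPM of Scd1 to Scd4 in each library. Scd2, a desaturase best known from brain and skin, measured 95.4, 83.3 and 46.1 TPM in BAT, 113, 47.2 and 46.8 in IWAT, 188, 63.9 and 44.0 in RWAT, and 91.4, 52.1 and 50 in EWAT, and its depots overlapped. Scd3 and Scd4 were near the limit of detection, at no more than 0.32 and 0.69 TPM, and their estimated counts carried a posterior standard deviation of up to 31.4% and 13.4% of the count, so their values are uncertain. For the other 32 members this standard deviation was at most 2.80% of the count, in Mogat1.

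The front-end desaturases of polyunsaturated fatty acids did not follow Scd1. Fads2, the delta-6 desaturase, measured 5.06, 5.06 and 5.84 TPM in BAT, 5.80, 6.88 and 7.70 in IWAT, 7.94, 15.8 and 11.7 in RWAT, and 25.9, 11.8 and 12.5 in EWAT. Every BAT and IWAT library lay below every EWAT library in TPM. Fads1, the delta-5 desaturase, measured 12.4, 23.1 and 21.9 TPM in BAT, 27.7, 20.9 and 27.9 in IWAT, 34.5, 43.8 and 31.6 in RWAT, and 36.6, 30.7 and 39.0 in EWAT. In BAT it ran below EWAT in TPM in all 3 libraries, and RWAT and EWAT overlapped. On TMM-scaled CPM the BAT and EWAT libraries overlapped for both Fads2 and Fads1. Fads3, a related desaturase, ranged from 26.1 to 98.3 TPM and was the most abundant member of its family by mean TPM in all 4 depots. In RWAT 3 and EWAT 3, and narrowly in RWAT 2, Fads1 was above Fads3.

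Among the regulators, Thrsp had the widest range. Thrsp, the lipogenic protein Spot 14, measured 1832, 1602 and 630.3 TPM in BAT, 1324, 921 and 199 in IWAT, 1389, 10.5 and 57.9 in RWAT, and 101, 91.9 and 43.2 in EWAT. Its lowest and highest libraries differed 174-fold, the largest range of the 34 genes. Mid1ip1, the paralogue of Thrsp that promotes polymerisation of acetyl-CoA carboxylase, ranged only from 17.9 to 36.8 TPM.

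Both lipogenic transcription factors had narrower ranges than Fasn or Acaca. Srebf1 measured 322, 491 and 197 TPM in BAT, 385, 352 and 160.4 in IWAT, 373, 85.7 and 77.6 in RWAT, and 139.6, 117 and 114 in EWAT. Mlxipl measured 42.2, 47.4 and 20.3 TPM in BAT, 33.3, 19.6 and 8.70 in IWAT, 53.1, 3.89 and 8.23 in RWAT, and 9.49, 9.42 and 7.02 in EWAT. All BAT libraries were above all EWAT libraries for both genes. Insig1, which holds the SREBP complex in the endoplasmic reticulum, measured 156, 226 and 76.2 TPM in BAT, 151, 163 and 69.2 in IWAT, 163, 78.7 and 34.7 in RWAT, and 72.9, 40.6 and 64.5 in EWAT, and here also BAT and EWAT did not overlap. Scap, the escort protein of SREBP, ranged from 11.98 to 32.4 TPM, and BAT and EWAT overlapped.

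Glycerolipid assembly begins with the acylation of glycerol 3-phosphate. Gpam, the mitochondrial glycerol-3-phosphate acyltransferase, measured 132, 147 and 82.7 TPM in BAT, 88.3, 94.2 and 43.2 in IWAT, 106, 26.0 and 45.5 in RWAT, and 45.7, 54.7 and 36.2 in EWAT. Agpat2, the acyltransferase whose loss causes generalised lipodystrophy, measured 1022, 629 and 295 TPM in BAT, 657, 562 and 175 in IWAT, 637, 51.1 and 42.4 in RWAT, and 120.4, 101 and 77.8 in EWAT. Both were higher in every BAT than in every EWAT library. Agpat3, a broadly expressed member of the same family, ranged from 57.6 to 169.7 TPM.

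Lipins convert phosphatidate to diacylglycerol. Lpin1, the main adipocyte lipin, measured 118, 122 and 62.3 TPM in BAT, 141, 87.5 and 36.8 in IWAT, 164, 14.2 and 20.6 in RWAT, and 34.2, 37.8 and 24.2 in EWAT. Lpin2 measured 4.74, 6.43 and 13.4 TPM in BAT, 6.18, 8.74 and 24.4 in IWAT, 11.0, 23.8 and 18.4 in RWAT, and 20.9, 28.2 and 32.7 in EWAT. Lpin2 ran against Lpin1, with every BAT library below every EWAT library, RWAT 1 below RWAT 2 and RWAT 3, and IWAT 3 above IWAT 1 and IWAT 2.

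Diacylglycerol acyltransferases catalyse the last step to triglyceride. Dgat2 measured 1031, 1251 and 394 TPM in BAT, 1100.0, 781 and 216 in IWAT, 1416, 49.2 and 57.5 in RWAT, and 211, 218 and 125 in EWAT. Dgat1, the other enzyme of this step, measured 197, 258 and 127 TPM in BAT, 215, 225 and 116 in IWAT, 228, 48.0 and 44.5 in RWAT, and 84.2, 82.0 and 71.5 in EWAT. Dgat2 supplied 50.6% to 86.1% of their summed TPM, and its share was lowest in RWAT 2. Mogat1, a monoacylglycerol acyltransferase, measured 21.5, 34.2 and 11.1 TPM in BAT, 28.7, 26.0 and 7.23 in IWAT, 31.6, 1.44 and 3.30 in RWAT, and 6.79, 10.3 and 3.74 in EWAT. Pnpla3, a lipid droplet protein under SREBP1 control, measured 69.0, 69.1 and 23.7 TPM in BAT, 77.8, 46.5 and 16.7 in IWAT, 119, 5.14 and 2.45 in RWAT, and 22.7, 8.60 and 6.53 in EWAT. In both genes the lowest BAT library was only just above the highest EWAT library, at 11.1 against 10.3 TPM for Mogat1 and 23.7 against 22.7 TPM for Pnpla3.

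Fold changes were widest between denervated BAT and EWAT. The members' median log2 fold change was 2.23 in BAT against EWAT, beside −0.08 for all genes tested, and 30 of 34 fold changes were above 0. Fasn was 37 times as high in BAT by the edgeR estimate (log2 fold change 5.21, SE 1.77, adjusted p = 0.104). For Thrsp the log2 estimate was 4.90 (SE 1.68, adjusted p = 0.105), and Acacb one of 4.83 (SE 1.28, adjusted p = 0.0703), the lowest adjusted p of the members. On the other side stood Fads2 with -1.003 (SE 0.40, adjusted p = 0.14) and Lpin2 with -0.96 (SE 0.31, adjusted p = 0.096). These p-values are from edgeR's quasi-likelihood test with Benjamini-Hochberg adjustment over all genes.

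With that test 0 of 34 members passed an adjusted p of 0.05 between BAT and EWAT, where 0.783% of all genes did. At an unadjusted p under 0.05 there were 21 members higher and 2 lower in BAT, against 15.1% and 12.5% of all genes. DESeq2 called 21 members, 20 higher and 1 (Lpin2) lower in BAT, where it called 9.92% and 6.89% of all genes in these directions. With limma-voom 0 members and 0.0992% of all genes were called. On TMM-scaled CPM the libraries did not overlap in 23 members that were higher in BAT, against 19.1% of all genes, and in 1 that was lower, Lpin2, against 17.8%. Leaving out RWAT 1, which is in neither depot but enters the shared estimate of spread, brought 14 members past the threshold, all higher in BAT and including Fasn, Acaca, Acacb and Thrsp, against 4.08% of all genes in that direction. Leaving out BAT 3 brought 2 past it, Acacb higher and Lpin2 lower in BAT, against 5.26% and 4.44% of all genes.

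By role, the fatty acid synthesis core had the highest median log2 fold change of BAT against EWAT, 4.68, with estimates from 3.09 for Aacs to 5.21 for Fasn and all 6 genes at an unadjusted p under 0.05. The estimates of Acss2, Acaca and Acly were 4.78, 4.59 and 4.001. Citrate export and NADPH supply had a median of 2.76, with 4.11 for Me1 and 4.04 for Slc25a1 at the top and 1.13 for G6pdx at the bottom, and 4 of 6 at an unadjusted p under 0.05. Desaturases had a median of 0.66. Scd1 stood at 3.15, Scd2 at 0.996, Fads3 at 0.87 and Fads1 at -0.28.

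Regulators had a median log2 fold change of 2.14 in this comparison. Below Thrsp, Mlxipl stood at 2.65, Srebf1 at 2.20 and Insig1 at 2.09. Mid1ip1 and Scap, at 0.59 and 0.12, changed sign to −0.04 and −0.45 when libraries were scaled by their totals alone, a scaling that moved the median of all genes from −0.08 to −0.60. Glycerolipid assembly had a median of 2.26. Agpat2 led it at 3.60, followed by Dgat2 at 3.02 and Pnpla3 at 2.85, with Lpin1 at 2.42, Mogat1 at 2.26, Gpam at 2.15 and Dgat1 at 2.08. These fold changes are on the scale of TMM-scaled counts and differ from ratios of TPM, which are relative to all transcripts of a library.

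Cell type markers differed between the same libraries. The 14 adipocyte markers summed to 12200 to 30990 CPM in BAT and 4461 to 8784 CPM in EWAT, with a median log2 fold change of 1.80 and 0 of 14 called, 7 of them at an unadjusted p under 0.05. The 14 macrophage markers summed to 1197 to 5608 CPM in BAT and 6028 to 8107 CPM in EWAT, with a median of −1.29. Other lists differed more. The 14 skeletal muscle markers had a median of 9.72 with 0 called. The 8 brown adipocyte markers had a median of 7.095 with 4 called, and the 9 mesothelial markers −7.30 with 7 called. Fewer adipocytes and less RNA of the 34 genes per adipocyte cannot be told apart in bulk tissue. With the mean log2 CPM of the adipocyte markers as a covariate, the members' median log2 fold change between BAT and EWAT was 0.50 in place of 2.23, and 23 of 34 were above 0. In that fit Acacb stood at 2.44 (adjusted p = 0.0624), Fasn at 1.90 (adjusted p = 0.117), Scd1 at 0.54 and Dgat2 at 0.09, by edgeR, and 0 members passed the threshold. Over all settings tried the adjusted p ran from 0.000148 to 0.219 for Acacb and from 0.00134 to 0.269 for Fasn. The part of cell composition in the difference was not tested beyond this fit.

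**Figure D3:**
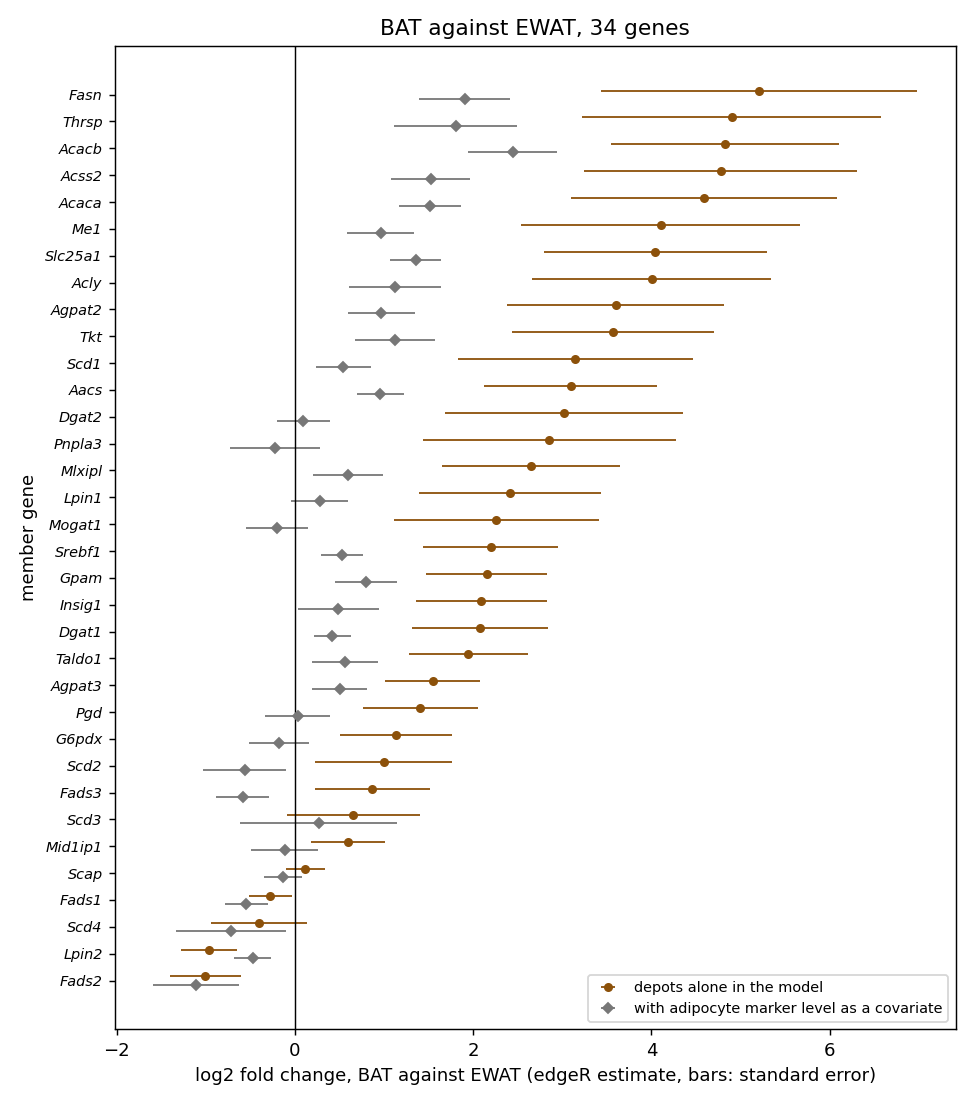
Log2 fold change of BAT against EWAT for each of the 34 genes (edgeR estimate; bars are 1 standard error), with depots alone in the model (circles) and with adipocyte marker level added as a covariate (diamonds). Fasn, Thrsp, Acacb, Acss2 and Acaca had the highest estimates in the first fit, and the covariate brought most estimates closer to 0, Fasn from 5.21 to 1.90.

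Divided by the geometric mean TPM of the adipocyte markers in the same library, members separated into sets. Fasn measured 9.13, 5.72 and 3.56 times that mean in BAT, 4.59, 2.97 and 1.34 times in IWAT, 3.92, 0.333 and 0.979 times in RWAT, and 0.924, 0.600 and 0.369 times in EWAT. All BAT libraries were above all EWAT libraries in 15 members, among them all 6 of the synthesis core, against 2.14% of all genes on this scale, and all were below in 8, against 70.2% of all genes. Dgat1 and Srebf1 had the narrowest ranges on this scale, 1.49-fold and 1.81-fold over the 12 libraries. Thrsp and Fasn had the widest, 55.7-fold and 27.4-fold. The marker mean itself differed 7.53-fold between libraries. This scale was added after the data were seen and carries no test.

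**Figure D4:**
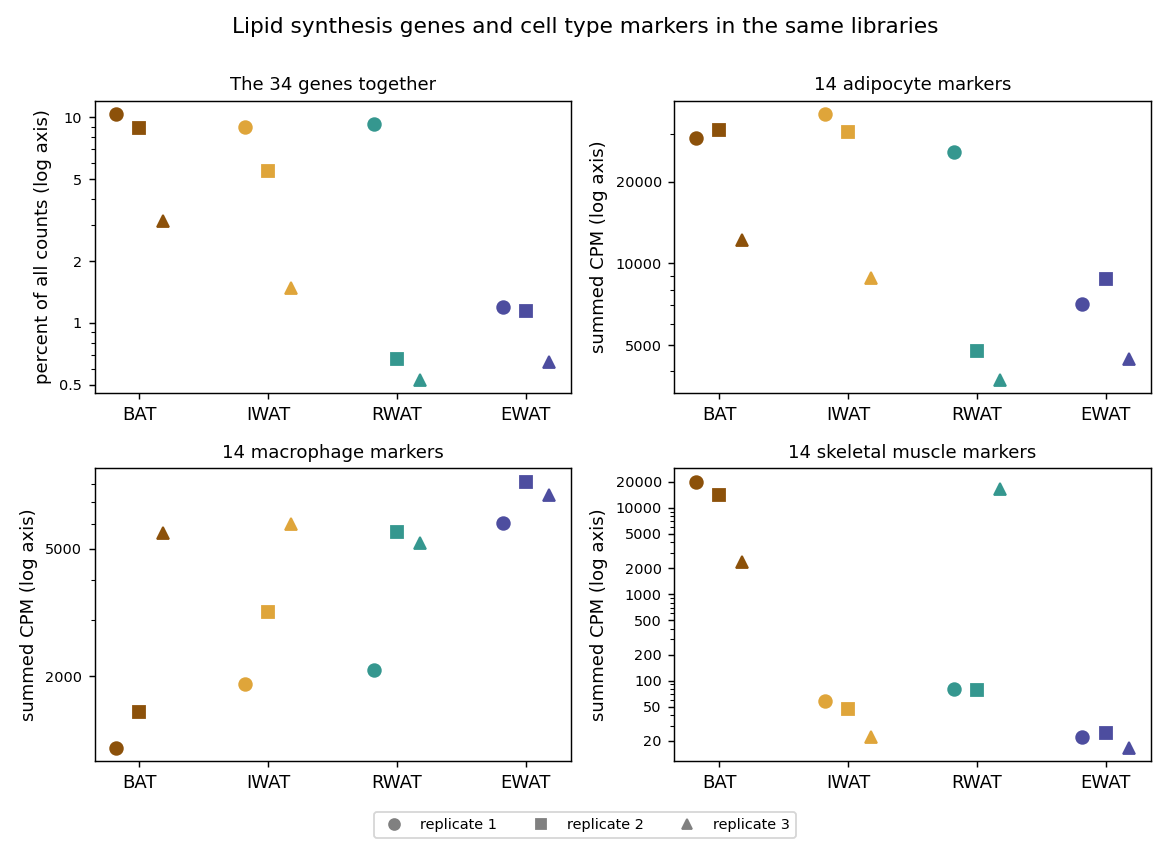
Share of all counts taken by the 34 genes (percent) and summed TMM-scaled CPM of 14 adipocyte, 14 macrophage and 14 skeletal muscle markers, on log axes, in each library by depot (symbols are replicates 1 to 3). BAT 3, IWAT 3, RWAT 2 and RWAT 3 are low for the 34 genes and for adipocyte markers relative to their depot's highest library and high for macrophage markers; muscle markers are high in the BAT libraries and in RWAT 3.

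The next highest estimates were those of IWAT against EWAT. Between IWAT and EWAT the median log2 fold change of the members was 1.77, against −0.04 for all genes tested, and 27 of 34 were above 0. Fasn had an estimate of 4.24 (SE 1.69, adjusted p = 0.265) and Acaca of 3.93 (SE 1.45, adjusted p = 0.24), while Fads2 stood at -1.03 and Lpin2 at -0.73 (edgeR). The edgeR test called 0 of 34 members and 0.345% of all genes. Of the members 13 were higher and 2 lower in IWAT at an unadjusted p under 0.05, against 8.85% and 7.36% of all genes. DESeq2 called 7 members, all higher in IWAT (Fasn, Acaca, Acacb, Acss2, Me1, Slc25a1 and Thrsp), against 2.73% of all genes, and limma-voom called 0 members and 0.131% of all genes. Libraries did not overlap for 13 members higher in IWAT, against 11.8% of all genes, and for 2 lower, against 13.1%. Adipocyte markers had a median of 1.72 here, with 0 of 14 called and 5 of 14 at an unadjusted p under 0.05, and with them as covariate the members' median was −0.12.

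Between BAT and IWAT the estimates were small. The members' median log2 fold change was 0.59, against −0.04 for all genes, and 31 of 34 were above 0. This median depended on single libraries. It ran from 0.063 without BAT 1, with 22 of 34 above 0, to 1.215 without IWAT 1, with 32 of 34 above 0. Without IWAT 3 it was 0.155, with 28 of 34 above 0. Acacb stood at 1.12 (SE 1.099) and Acly at 1.03 (SE 1.20), Lpin2 at -0.23 and Fads1 at -0.16, each with an adjusted p of 0.998 by edgeR. That test called 0 members and 0.0104% of all genes, 0 members had an unadjusted p under 0.05 against 3.85% of all genes, DESeq2 called 0 members and 0.88% of all genes, and limma-voom called 0 members and 0.0104% of all genes. The libraries overlapped in all members but Scd3, whose values are uncertain, where 3.61% of all genes were higher in BAT and 3.22% higher in IWAT without overlap. Adipocyte markers had a median of 0.07 between these depots. With them as covariate the members' median was 0.53, with 31 of 34 above 0. In that fit edgeR called 0 members and 0.0365% of all genes. It gave 10 members an unadjusted p under 0.05, against 1413 of the 19154 genes tested.

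The members' medians in the comparisons with RWAT changed most when 1 library, RWAT 1, was left out. Without it the median of RWAT against EWAT fell, and those of BAT and of IWAT against RWAT rose. RWAT 1 exceeded the mean of RWAT 2 and RWAT 3 by 40.8 times for Fasn, 40.6 times for Thrsp, 34.6 times for Me1, 31.4 times for Pnpla3 and 27.9 times for Acss2 in TPM. Lpin2 and Fads2 in RWAT 1 were 0.521 and 0.577 times that mean. RWAT 1 also had the highest adipocyte markers of its depot, as given above, and the lowest macrophage markers, 2099 summed CPM against 5639 and 5230 in RWAT 2 and RWAT 3; their part in the difference was not tested. Between RWAT and EWAT the members' median log2 fold change was 0.68 with all libraries, against 0.04 for all genes, and −0.51 without RWAT 1, when 1 of 34 estimates was above 0 in place of 29. Acss2 went from 3.10 (SE 1.42, adjusted p = 0.558) to −0.45, and Fasn from 3.06 (SE 1.60, adjusted p = 0.634) to −1.11, by edgeR. Fads2 and Lpin2 stood at -0.57 and -0.51 with all libraries. The edgeR test, DESeq2 and limma-voom called 0 members; of all genes edgeR called 0.0418%, limma-voom 0.0418% and DESeq2 2.86%. Adipocyte markers had a median of 0.71 here, with 14 of 14 above 0 and 0 called, and with them as covariate the members' median was 0.18. By edgeR 0 members had an unadjusted p under 0.05, against 9.04% of all genes. No member had RWAT and EWAT libraries that did not overlap, where 6.66% of all genes were higher and 8.21% lower in RWAT.

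Between BAT and RWAT the median was 1.35, against −0.07 for all genes. It was 3.12 without RWAT 1 and 0.915 without RWAT 3. Acacb stood at 2.37 (SE 1.14, adjusted p = 0.348) and Fasn at 2.15 (SE 1.54, adjusted p = 0.464), Lpin2 at -0.45 and Fads2 at -0.43, by edgeR. It called 0 members and 0.0574% of all genes, with 4 members (Agpat3, Gpam, Scap and Taldo1) higher in BAT at an unadjusted p under 0.05, against 8.31% of all genes. Without RWAT 1 it called 0 as well, with 25 members at an unadjusted p under 0.05 against 23.7% of all genes. With all libraries DESeq2 called 0 members and 1.91% of all genes, and limma-voom called 0 members and 0.00522% of all genes. Adipocyte markers had a median of 1.16 between these depots, with 13 of 14 above 0 and 0 called, and with them as covariate the members' median was 0.24. Scap was the single member without overlap, higher in BAT, against 7.42% of all genes higher and 9.33% lower in BAT. That holds on TMM-scaled CPM only: in TPM the mean of Scap was lower in BAT, 18.1 ± 5.38, than in RWAT, 19.9 ± 3.90 (SD, n = 3). Between IWAT and RWAT the median was 0.73, against −0.02 for all genes. It was 2.51 without RWAT 1 and 0.307 without RWAT 3. Slc25a1 and Agpat2 stood at 1.29 and 1.25, and Fads2 and Lpin2 at -0.45 and -0.22, with adjusted p from 0.871 to 0.886 by edgeR. Here edgeR, DESeq2 and limma-voom called 0 members, and of all genes edgeR and limma-voom called 0% and DESeq2 0.916%. Adipocyte markers had a median of 1.04, with 14 of 14 above 0 and 0 called, and with them as covariate the members' median turned to −0.26, with 8 of 34 above 0. By edgeR 0 members had an unadjusted p under 0.05, against 4.42% of all genes. In 0 members did the libraries not overlap, where 2.71% of all genes were higher and 3.97% lower in IWAT.

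When the 4 depots were tested together, edgeR called 0 of 34 members and 0.512% of all genes. Acacb had the lowest adjusted p, 0.195, and 8 members (Acacb, Gpam, Slc25a1, Aacs, Tkt, Taldo1, Agpat3 and Lpin2) had an unadjusted p under 0.05, against 17.1% of all genes. DESeq2 called 7 members and 11.3% of all genes (the members Acaca, Acacb, Fasn, Aacs, Slc25a1, Tkt and Gpam), and limma-voom called 0 members and 0.12% of all genes. Without BAT 2 and RWAT 3 together, a setting chosen after the data were seen, edgeR called 0 members in the 4-depot test, against 0.777% of all genes, and 0 in each pair. Of all genes it then called 0.67% for BAT and 0.228% for IWAT against EWAT, 0.248% for BAT against IWAT, 0.0194% for RWAT against EWAT and 0% for the other pairs. The medians were then 2.14 for BAT against EWAT and 1.14 for RWAT against EWAT, and the BAT against EWAT median was also 2.14 without BAT 2 alone. BAT 2 was lower in brown adipocyte markers than BAT 1 and BAT 3. In TPM it had Fasn and Acaca levels close to those of BAT 1 and a higher level of Scd1. On other scales BAT 2 was lower. Scd1 took 3.92% of all counts in BAT 1 and 3.68% in BAT 2. The mean log2 of TMM-scaled CPM over the fatty acid synthesis core was 12.15 in BAT 1 and 11.24 in BAT 2.

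Ratios compared related members within the same library. Scd2 relative to Scd1 had a mean log2 ratio of −6.55 ± 0.23 in BAT, −6.40 ± 0.75 in IWAT, −4.72 ± 1.34 in RWAT and −4.44 ± 0.49 in EWAT (SD, n = 3; adjusted p = 0.362 in an exact permutation test over the 4 depots). Agpat3 relative to Agpat2 had means of −2.06 ± 0.58, −1.87 ± 0.56, −0.48 ± 1.56 and −0.41 ± 0.29 in BAT, IWAT, RWAT and EWAT (SD, n = 3; adjusted p = 0.366, exact permutation). Mid1ip1 relative to Thrsp went from −5.32 ± 0.50 in BAT to −1.20 ± 0.69 in EWAT (SD, n = 3; adjusted p = 0.362, exact permutation). None of the 10 ratios passed the threshold with all libraries. Without RWAT 1 these 3 had an adjusted p of 0.0173, 0.0127 and 0.0127 in the same exact permutation test, and leaving out each other library in turn gave values up to 0.492.

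The other paralogue ratios missed the threshold whichever library was left out. Acacb relative to Acaca had means of −2.80 ± 0.34 in BAT, −3.00 ± 0.70 in IWAT, −2.85 ± 0.63 in RWAT and −2.76 ± 0.17 in EWAT (SD, n = 3; adjusted p = 0.947, exact permutation), with Acaca at 82.2% to 93.1% of their summed TPM in each library. Lpin2 relative to Lpin1 had means of −3.68 ± 1.29 in BAT and −0.23 ± 0.59 in EWAT, and Lpin1 supplied from 37.4% to 96.1% of their sum. Dgat1 relative to Dgat2 had means of −2.10 ± 0.41 in BAT and −1.18 ± 0.33 in EWAT. Mlxipl relative to Srebf1 ranged in its depot means from −3.96 to −3.19. The adjusted p of these 3 ratios was 0.412, 0.462 and 0.413 in the exact permutation test.

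**Figure D5:**
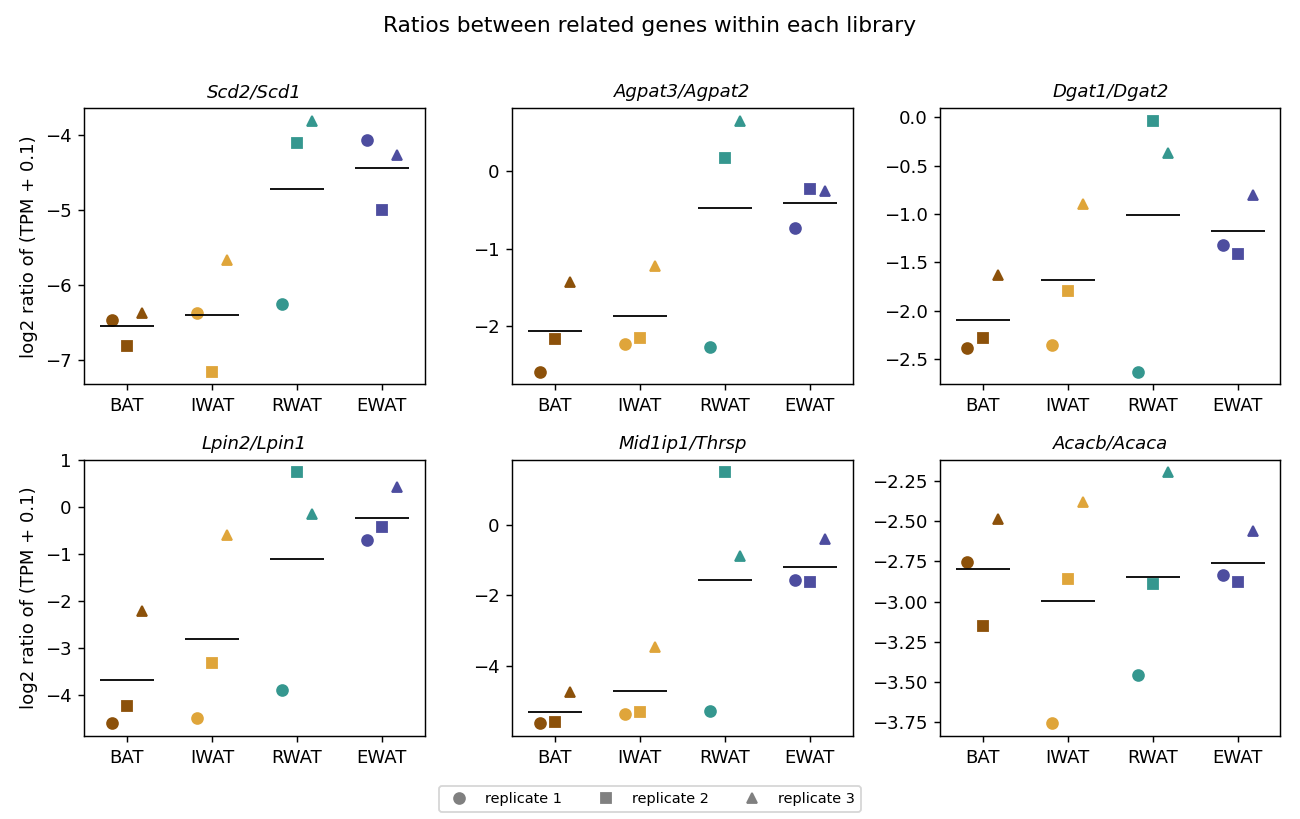
Log2 ratio of (TPM + 0.1) between related genes in each library, by depot (symbols are replicates 1 to 3, and horizontal lines depot means, n = 3). In 5 of the 6 panels RWAT 1 lies with BAT and IWAT, and RWAT 2 and RWAT 3 lie within or above the range of EWAT; the Acacb to Acaca ratio overlaps in all depots.

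Neighbouring pathways were read from lists of genes outside the 34. In BAT against EWAT, 19 other acyl chain and NADPH enzymes had a median log2 fold change of 1.12, with 0 called by edgeR. At an unadjusted p under 0.05, 15 were higher and 1 lower in BAT. Of all genes tested, 0.783% were called, and 15.1% were higher and 12.5% lower in BAT at that unadjusted p. Of 22 other glycerolipid enzymes 21 were tested, with a median of 1.44, 0 called, and 12 higher and 2 lower at an unadjusted p under 0.05. Of 22 regulators of the pathway outside the members, 0 were called, and 7 were higher and 2 lower at an unadjusted p under 0.05, with a median of 0.62. The 22 genes of cholesterol synthesis, which SREBP2 controls, had a median of 0.52 with 0 called, 5 higher and 1 lower at an unadjusted p under 0.05. None of these lists had a member called in any other pair. The regulator list holds Pparg and Cebpa, and the glycerolipid list Aqp7, which are also among the adipocyte markers.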

How the data were processed

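RNA was sequenced as single-end 75-base reads after removal of ribosomal RNA, per the labels' protocols. The submitters' processing notes list Trimmomatic 0.36, RSEM 1.3.0 and DESeq2, and the genome build GRCm38.p4. Neither the gene annotation nor the use of strand in counting is given in the sources used here. For each gene the deposited files hold RSEM expected counts without normalization and TPM from the authors. The posterior standard deviation of the count is also deposited, per the file headers, and serves as a measure of uncertain assignment.

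Expected counts were rounded, genes with low counts removed with filterByExpr and libraries scaled by TMM, and edgeR 4.0.16 (R 4.3.3) quasi-likelihood tests were run on all 12 libraries together, each depot having its own coefficient. P-values were adjusted by Benjamini-Hochberg over 19154 genes, with a threshold of 0.05, for 6 pairs of depots and for the 4 depots together. The biological coefficient of variation was 0.448. DESeq2 1.42.0 and limma-voom (limma 3.58.1) were alternatives. The ratios of 10 pairs of related genes, as log2 of (TPM + 0.1), were compared between depots by exact permutation over 369600 regroupings, adjusted over the 10. Where a count is 0, counting error alone permits up to 3 counts, or 0.191 CPM in the smallest library. No library duplicated another, exactly or within sampling noise.

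The 34 genes, the marker and pathway lists and the tests were chosen with earlier results of these data known. Values in every library are given for 19 core genes and for the 2 members with the largest fold change in each direction in each pair (mean of at least 1 TPM). Alternatives tried were RLE scaling, library totals alone, no filter or 1 CPM in 3 libraries, DESeq2, limma-voom, a replicate block, the adipocyte marker covariate, fits of 2 depots alone and each library left out in turn. Leaving out BAT 2 with RWAT 3, and TPM relative to adipocyte markers, were added after the data were seen.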

Additional observations from a re-analysis of the deposited data

How the results depend on the processing

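With edgeR and all libraries, 0 of 34 members were called in each pair and in the 4-depot test, and this held under RLE scaling, scaling by library totals alone, no filter, a filter of 1 CPM in 3 libraries, limma-voom and the adipocyte covariate. The count changed in other settings. DESeq2 called 21 members between BAT and EWAT, 7 between IWAT and EWAT and 7 in the 4-depot test. Between BAT and EWAT a fit of those libraries alone called 17 members and 5.81% of all genes, and the replicate block called 21 (20 higher and 1 lower in BAT) and 18.5% of all genes, against 0.783% with all libraries and no block; the number of genes called was 150 with edgeR, 3210 with DESeq2, 3542 with the block and 19 with limma-voom. The block treats same-numbered libraries as pairs, but the labels do not pair the replicate numbers. Deviations from the depot mean correlated with r above 0.1 in 10 of 18 same-numbered pairs (r from −0.35 to 0.68). Of the 12 libraries, 7 correlated best with a library of their own number. Whether same-numbered libraries belong together was not tested. The block called 0 members in the other comparisons. Leaving out each library in turn gave 0 to 14 members for BAT against EWAT (14 without RWAT 1 and 2 without BAT 3), 0 to 1 for the 4 depots together (1 without RWAT 1, against 1.57% of all genes; the share of all genes ran from 0.0561% without EWAT 2 to 5.11% without EWAT 1) and 0 for the other pairs. The cause was not tested.

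Over all 34 members and 6 pairs, 186 of 4476 estimates changed sign, among them 28 of 34 in RWAT against EWAT without RWAT 1 and, with the adipocyte covariate, 23 in IWAT against RWAT and 12 in IWAT against EWAT. Of the estimates for the 54 combinations of gene and pair chosen by the naming rule, 1090 kept direction and side of the threshold, 77 passed it in addition, and 19 changed sign. With the adipocyte covariate BAT against EWAT became −0.18 for G6pdx, −0.56 for Scd2, −0.58 for Fads3, −0.13 for Scap, −0.11 for Mid1ip1, −0.20 for Mogat1 and −0.22 for Pnpla3, Lpin2 became 0.058 for BAT against RWAT and 0.22 for IWAT against RWAT, and Slc25a1 −0.19 for IWAT against RWAT. With library totals alone BAT against EWAT became −0.445 for Scap and −0.035 for Mid1ip1. Leaving out each library in turn gave estimates from −0.027 (without EWAT 3) to 0.325 for Scap in BAT against EWAT (−0.023 without BAT 1), from −0.471 to 0.061 (without IWAT 3) for Lpin2 and from −0.334 to 0.16 (without IWAT 1) for Fads1 in BAT against IWAT, and in RWAT against EWAT from −0.823 to 0.028 (without EWAT 1) for Fads2, from −1.108 (without RWAT 1) to 3.631 for Fasn and from −0.45 (without RWAT 1) to 3.647 for Acss2. None of these estimates was called with all libraries.

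The adjusted p of the exact permutation test of ratios ranged over the libraries left out from 0.0173 to 0.492 for Scd2 to Scd1, from 0.0127 to 0.492 for Agpat3 to Agpat2 and from 0.0127 to 0.492 for Mid1ip1 to Thrsp, each lowest without RWAT 1; the other 7 ratios, a pseudocount of 1 TPM and ratios of counts stayed above the threshold. Depth limits Scd3 and Scd4, with 2.39 to 28.2 estimated counts per library.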

Other observations

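Some genes outside the 34 are named after their values were seen, and none passed the edgeR threshold between BAT and EWAT. Elovl6, Slc2a4, Gpd1 and Pck1 had fold changes of the size of the core members. Acat2 had a smaller one and Srebf2 one of opposite sign. Elovl6, which elongates palmitate to stearate, had a log2 fold change of 5.31 (edgeR adjusted p = 0.0742). Slc2a4, the insulin-responsive glucose transporter, had 3.73 (adjusted p = 0.0931). Of the genes that supply glycerol 3-phosphate, Gpd1 had 4.18 (adjusted p = 0.0769) and Pck1 4.13 (adjusted p = 0.0679). Acat2, a cytosolic acetoacetyl-CoA thiolase counted with cholesterol synthesis, had 2.60 (adjusted p = 0.0997). Srebf2, the transcription factor of cholesterol synthesis, had −0.75 (adjusted p = 0.124).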
